A study of Mus musculus with 6 samples.

Results

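The genes described here are the mouse mitochondrial ribosomal protein genes, taken as every name in the deposited count table made of Mrpl or Mrps, a number and at most 1 further letter. The rule gave 77 genes of 46963 in the table, 48 named for the large subunit (Mrpl) and 29 for the small subunit (Mrps). It used names only and no measured value, although the members were chosen with earlier results of these data known. Of the 77 genes, 76 passed the filter on low counts (at least 10 counts in at least 2 of the 6 libraries).

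Mitochondria carry their own ribosome, the mitoribosome, which translates the few membrane proteins of the respiratory chain and of the ATP synthase that mitochondrial DNA encodes. Its rRNAs come from mitochondrial DNA, whereas its proteins are encoded in the nucleus, made in the cytosol and imported. Some of these proteins descend from bacterial ribosomal proteins and others are found only in mitochondria. Subunit names are historical: the products of Mrps30 and Mrps18a sit in the large subunit, and that of Mrps36 is now placed in the 2-oxoglutarate dehydrogenase complex. When resting B-cells meet lipopolysaccharide (LPS), a bacterial product that signals through Toll-like receptor 4, they grow, divide and in part become antibody-secreting cells.

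The libraries came from splenic B-cells obtained by removing CD43-bearing cells from wt mice and from mice that lack Eμ or the 3′RR. Eμ and the 3′ regulatory region (3′RR) are the enhancers at either end of the immunoglobulin heavy chain constant genes, and each deletion is carried in the germ line, not in B-cells alone. The Eμ-deficient line lacks Eμ with its flanking matrix attachment regions, and both mutant lines were kept on the same inbred background as wt, with male and female mice 8 to 12 weeks old. For each genotype, 1 library was made from resting cells and 1 from cells given LPS for 2 days, at 5 μg per ml by the sample labels and the study's methods (the extraction protocol has mg in place of μg). The labels have the resting cells cultured for 2 days without LPS, whereas the study's methods do not state such a culture. Each library pooled cells of 2 mice per the labels, and 1 library was analysed per group. The study's own text describes the pooling differently, so which mice a library stands for is not certain.

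Gene counts ran from 9111974 to 21998587 a library, with the 3′RR-deficient LPS library the shallowest. The members took 0.0934% to 0.112% of the gene counts in the 3 resting libraries and 0.204% to 0.242% in the 3 LPS libraries. These gene counts include rRNA (Rn18s and mt-Rnr names), from 22.3% in the 3′RR-deficient to 32.3% in the wt LPS library. All 8 B-cell markers checked were present, from 33.7 CPM (counts per 1000000, here after TMM scaling of library sizes) for Fcer2a upward. Markers of other cells were not at 0 in the resting libraries, and their sums were highest in the Eμ-deficient one. The summed CPM of 5 erythroid markers was 3045 to 17183 in resting and 52.8 to 637 in LPS libraries. For 6 myeloid markers the sum was 131 to 311 in resting and 14.9 to 26.9 in LPS libraries, and for 6 T-cell markers 15.2 to 31.7 and 0.854 to 4.09. Each of these sums was highest in the Eμ-deficient library of its culture state. The 4 plasma cell markers summed to 1819 and 1213 CPM in the resting and LPS Eμ-deficient libraries, and to at most 501 in the others. With LPS, 3 of 8 B-cell markers fell (Cr2 and Fcer2a most, at log2 fold changes of -2.52 and -1.16), as did 5 of 5 erythroid, 6 of 6 myeloid and 5 of 6 T-cell markers, and 2 of 4 plasma cell markers rose (Prdm1, 3.07, and Xbp1, 1.89). The proliferation genes Mki67, Top2a and Ccnb1 rose with LPS, and the activation marker Cd86 fell. The part of these other cells in the values below was not tested. In such bulk samples, fewer cells of a type and less RNA per cell cannot be told apart, and CPM is a share of each library, not an amount per cell.

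The promoters of these genes were searched first, because the members moved together with LPS. RefSeq windows on GRCm38.p6 matched 68 of the 77 members, with 74 windows in all, and the 250 bases upstream of each start were read on both strands. CCGGAAG, the core bound by ETS factors such as GABP, a known activator of nuclear genes for mitochondria, was in 17 of 74 member windows (22.97%). It was in 6.91% of all 32851 windows and in 13.8% of the windows of genes tested here. GCATGCGC, part of the motif of NRF-1, another such activator, was in 8 member windows (10.8%), in 2.26% of all windows and in 4.34% of those of tested genes. AAGATGGC, the core of the YY1 motif, was in 4 member windows (5.41%), against 1.56% of all windows and 2.15% of those of tested genes. With the 50 bases after the start included, it was in 12 member windows (16.2%) against 2.75% of all windows of 300 bases. At that length CCGGAAG was in 25 member windows (33.8% against 8.86%) and GCATGCGC in 8 (10.8% against 2.71%). The share over windows of tested genes was not computed at 300 bases. CACGTG, the E-box that MYC and related proteins can bind, was in 7 member windows (9.46%) against 6.02% of all windows and 8.34% of those of tested genes. Of these, 3 are overlapping Mrpl2 windows with the same site, so 5 of 68 members (7.35%) hold it. In the windows of 300 bases CACGTG stayed at 7 (9.46%), against 7.15% of all windows. No motif overlapped another in the sequences printed here. The members' windows had a mean GC content of 58.0%, against 53.2% for all windows and 59.5% for tested genes. Members with CCGGAAG had a median log2 fold change with LPS of 1.36 (16 tested) and those without it 1.27 (51). For AAGATGGC the medians were 1.497 with it (4 tested) and 1.27 without it (63). The order was the other way for GCATGCGC, at 0.97 with it (8 tested) and 1.36 without it (59). It was also the other way for CACGTG, at 1.21 with it (5 tested) and 1.31 without it (62). These differences were not tested. A match is a description of letters, not a bound site.

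Of the windows outside annotated exons that hold a motif, 4 are shown, chosen after the motifs and values were seen, 5′ to 3′ along the gene, each ending at the base before the start. Capitals mark the motifs. Mrpl20 had the largest rise of all members and its window holds CACGTG 33 bases before the start. The Mrpl22 window holds both CCGGAAG, 53 bases before the start, and the NRF-1 core on the other strand. Mrpl52, the highest member in the Eμ-deficient fit by the naming rule below, holds CCGGAAG on the other strand, and Mrps22, a small subunit gene that rose, holds it 11 bases before the start. The windows lie at chr4:155802628-155802877 (plus strand), chr11:58171414-58171663 (plus), chr14:54426659-54426908 (plus) and chr9:98601680-98601929 (minus).
Mrpl20: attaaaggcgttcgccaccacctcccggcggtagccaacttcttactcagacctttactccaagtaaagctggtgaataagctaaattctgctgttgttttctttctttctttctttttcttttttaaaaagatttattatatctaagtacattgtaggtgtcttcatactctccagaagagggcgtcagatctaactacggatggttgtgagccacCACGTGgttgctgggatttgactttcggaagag
Mrpl22: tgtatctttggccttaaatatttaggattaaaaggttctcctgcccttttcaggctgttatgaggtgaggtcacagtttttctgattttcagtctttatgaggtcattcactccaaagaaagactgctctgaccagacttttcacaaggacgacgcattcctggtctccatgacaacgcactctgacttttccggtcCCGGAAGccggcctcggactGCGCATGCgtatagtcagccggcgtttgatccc
Mrpl52: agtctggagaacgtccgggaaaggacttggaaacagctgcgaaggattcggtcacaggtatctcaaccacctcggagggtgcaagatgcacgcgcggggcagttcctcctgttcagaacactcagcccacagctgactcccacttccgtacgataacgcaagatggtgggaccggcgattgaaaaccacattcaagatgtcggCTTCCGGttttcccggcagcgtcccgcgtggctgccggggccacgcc
Mrps22: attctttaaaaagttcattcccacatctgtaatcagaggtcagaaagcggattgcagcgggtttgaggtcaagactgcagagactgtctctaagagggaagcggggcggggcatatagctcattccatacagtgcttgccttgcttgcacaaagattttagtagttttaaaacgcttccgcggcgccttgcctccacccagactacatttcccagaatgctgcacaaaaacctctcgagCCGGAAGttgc

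With LPS, most mitochondrial ribosomal protein genes rose. Of the 76 members tested, 68 rose and 0 fell at an adjusted p under 0.05, in an edgeR quasi-likelihood fit over the 6 libraries with genotype as a block. DESeq2 called 67 higher and 0 lower, and at an unadjusted p under 0.05 edgeR had 69 members, none of them lower. Over all 14600 genes tested, 20.7% were called higher and 20.4% lower. By name, 41 of 47 large subunit genes and 27 of 29 small subunit genes rose. The median log2 fold change was 1.26 over the members, which is 2.398-fold, 1.28 for large and 1.21 for small subunit genes, against -0.03 for all genes. The members ran from -0.04 (Mrpl24) to 2.36 (Mrpl20). In 70 of 76 members all 3 LPS libraries lay above all 3 resting libraries, a pattern held by 25.7% of all genes tested. With 1 library a group, the error of this fit is the departure of the 3 genotypes from a common LPS effect, not the spread between mice.

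The rise was seen in each genotype. Summed over the members, the level was 999, 924 and 1008 CPM in wt, Eμ-deficient and 3′RR-deficient resting cells. After LPS it was 2673, 2070 and 2248 CPM in the same order. All 3 LPS sums were above all 3 resting sums, by 1.42, 1.16 and 1.16 on the log2 scale. The median LPS to resting log2 ratio of single members was 1.43 in wt, 1.23 in Eμ-deficient and 1.14 in 3′RR-deficient cells, where all genes tested had -0.02, 0.02 and -0.08. In wt cells 76 of 76 members were higher with LPS, in Eμ-deficient cells 75 and in 3′RR-deficient cells 72.

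**Figure D1:**
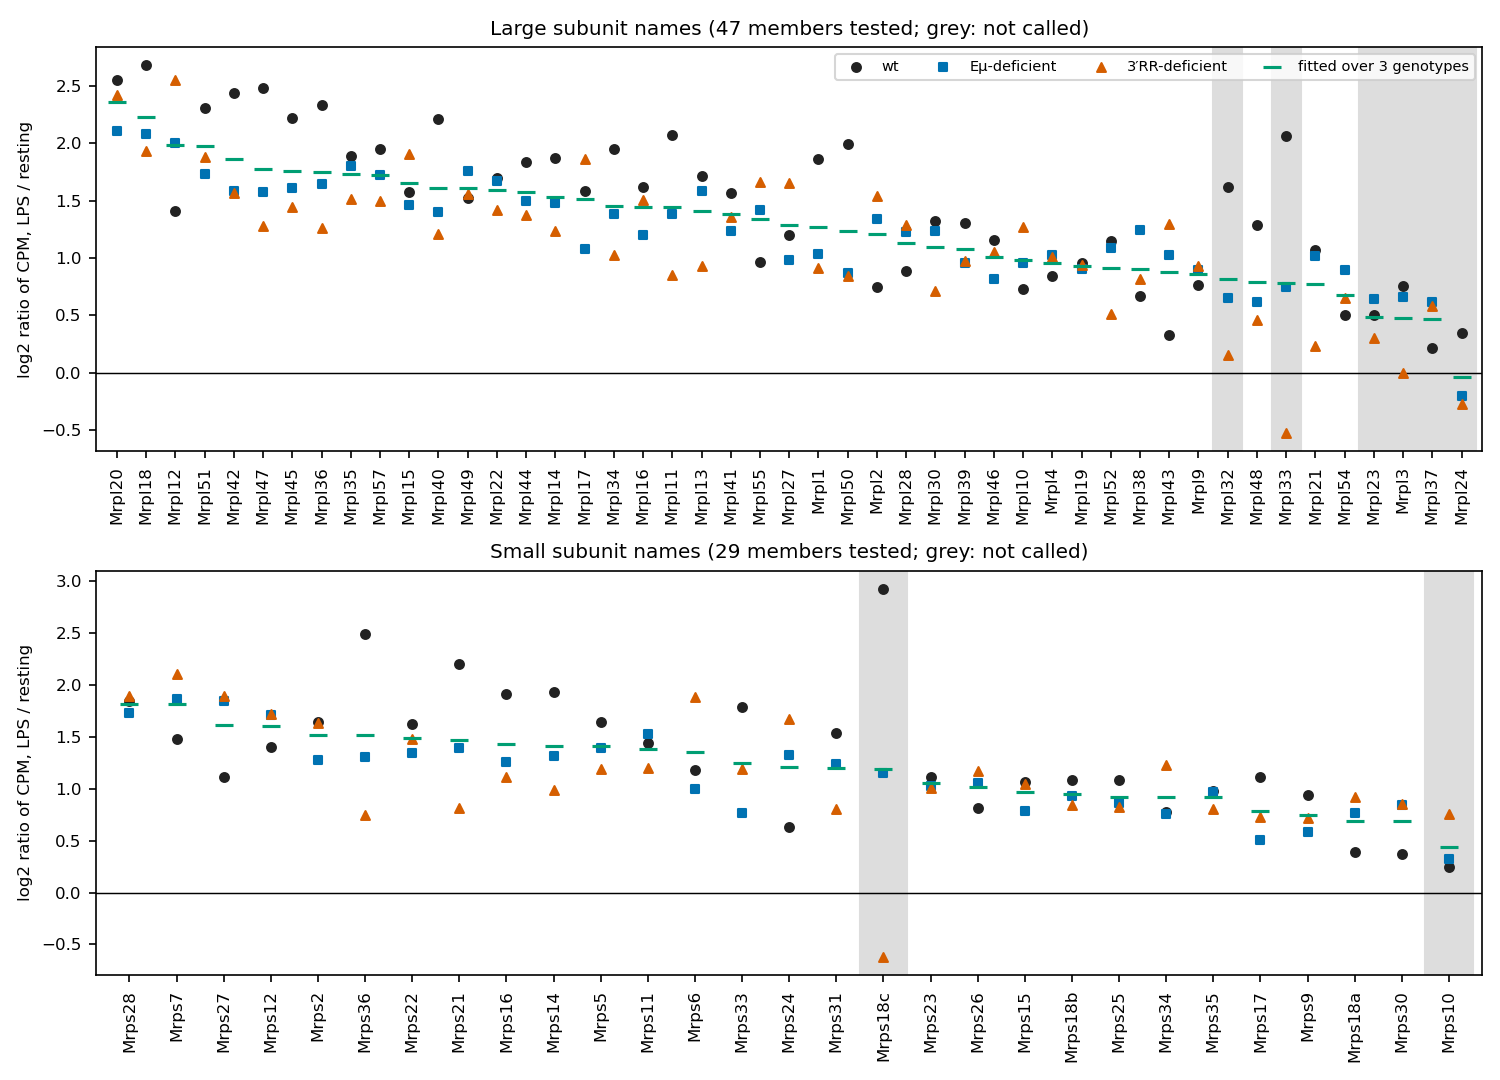
LPS to resting log2 ratio of CPM for each of the 76 tested members, large subunit names above and small subunit names below. Circles, squares and triangles are wt, Eμ-deficient and 3′RR-deficient libraries, green bars are the fit over the 3 genotypes, and grey columns mark the 8 members not called. Nearly all points lie above 0, and the triangles of Mrpl33 and Mrps18c lie furthest below it.

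The calls depended on which genotypes were in the fit. With the wt pair of libraries left out 68 members were called, without the 3′RR-deficient pair 61, and without the Eμ-deficient pair 46. Over all genes tested, 24.5%, 18.3% and 13.6% were called higher in these fits. Of the called members named in this text, Mrpl4, Mrpl9, Mrpl10, Mrpl30, Mrpl43, Mrpl48, Mrpl52, Mrps18a, Mrps18b, Mrps25, Mrps30, Mrps31 and Mrps34 lost their call without the Eμ-deficient pair, with edgeR adjusted p from 0.054 (Mrps31) to 0.31 (Mrps30). Without the 3′RR-deficient pair Mrpl9, Mrpl10, Mrpl43, Mrps18a, Mrps30 and Mrps34 lost theirs (edgeR adjusted p 0.051 to 0.23), and without the wt pair Mrpl48 did (0.072). None of these changed direction.

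The 6 largest rises with the same sign in all 3 genotypes were Mrpl20, Mrpl18, Mrpl12, Mrpl51, Mrpl42 and Mrps28. Mrpl20 (chr4:155802878-155809975), a homologue of the bacterial protein L20, was at 21.8, 20.4 and 21.3 CPM in wt, Eμ-deficient and 3′RR-deficient resting cells and at 128, 87.7 and 114 CPM after LPS. The resting libraries were nearly level and every LPS library was far above them, with the Eμ-deficient one lowest. Its fitted log2 fold change was 2.36 (SE 0.24, edgeR adjusted p = 0.00014). Mrpl18 (chr17:12911349-12916345), a homologue of bacterial L18, was at 16.1, 14.6 and 19.8 CPM in resting and 103, 61.8 and 75.7 CPM in LPS cells. Again the groups did not overlap, and wt was highest with LPS (fitted log2 fold change 2.23, SE 0.25). Mrpl51, Mrpl42 and Mrps28 had fitted log2 fold changes of 1.97, 1.86 and 1.82 with SE of 0.24, 0.27 and 0.25. In Mrpl51 and Mrpl42, whose products are found only in mitochondrial ribosomes, the LPS level was highest in wt cells, at 67.6 and 43.1 CPM.

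The stalk of the large subunit, which recruits translation factors, is formed by the products of Mrpl10, Mrpl11 and Mrpl12. Mrpl12, whose product has also been found bound to the mitochondrial RNA polymerase, was at 16.5, 9.30 and 13.4 CPM in resting and 44.0, 37.3 and 78.9 CPM in LPS cells, in the same order of genotypes. All LPS values were above all resting values, and the 3′RR-deficient library was the highest, at a fitted log2 fold change of 1.99 (SE 0.28). Mrpl11 differed from Mrpl12 in the place of the 3′RR-deficient LPS library. It was at 13.6, 14.0 and 13.7 CPM in resting and 57.3, 36.6 and 24.7 CPM in LPS cells, so wt was highest and 3′RR-deficient lowest (1.44, SE 0.28). Mrpl10, the stalk base, rose less, from 14.8, 10.9 and 10.9 CPM to 24.6, 21.2 and 26.4 CPM (0.98, SE 0.24).

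Among large subunit proteins inherited from bacteria, Mrpl2 and Mrpl4 rose and Mrpl3 did not pass the test. Mrpl2, whose product lies near the peptidyl transferase centre, went from 14.7, 9.30 and 15.0 CPM to 24.7, 23.597 and 43.4 CPM (log2 fold change 1.21, SE 0.25). Mrpl4, from the wall of the exit tunnel, went from 15.8, 12.5 and 18.03 CPM to 28.4, 25.5 and 36.2 CPM (0.96, SE 0.22). Neither gene had overlapping groups. Mrpl3 was at 22.0, 19.2 and 22.7 CPM in resting and 37.1, 30.4 and 22.6 CPM in LPS cells, so the 3′RR-deficient LPS library was within the resting range (0.47, SE 0.25, edgeR adjusted p = 0.15). Mrpl45, which helps to hold the ribosome at the inner membrane, rose (1.76, SE 0.26), as did Mrpl44, whose product has a ribonuclease III-like fold (1.57, SE 0.25).

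**Figure D2:**
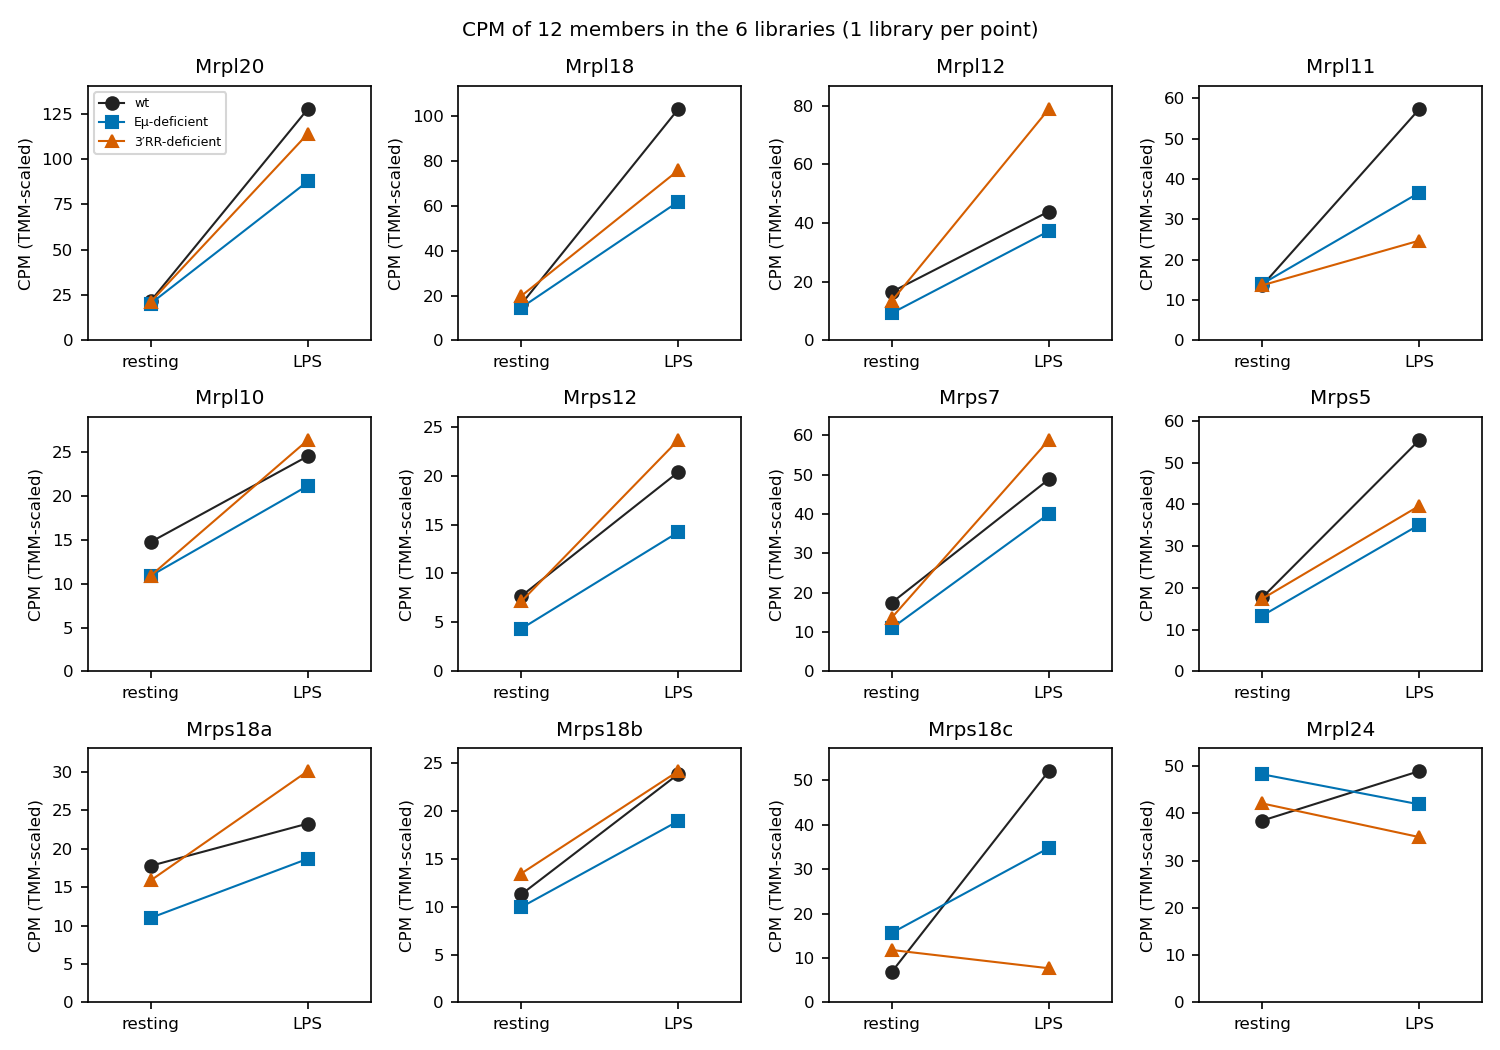
CPM of 12 members in the 6 libraries, resting on the left and LPS on the right of each panel, with 1 point per library and lines joining the libraries of a genotype (black wt, blue Eμ-deficient, orange 3′RR-deficient). Axes start at 0 and differ between panels. Mrpl20 rises from about 21 CPM in each genotype, while in Mrps18c and Mrpl24 the lines of some genotypes rise and those of others fall.

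Of the small subunit genes fixed by role, Mrps12, Mrps7, Mrps5, Mrps2, Mrps22 and Mrps34 rose. Mrps12, the homologue of bacterial S12 at the decoding centre, was at 7.69, 4.35 and 7.14 CPM in resting and 20.3, 14.2 and 23.61 CPM in LPS cells. The groups did not overlap, and Eμ-deficient cells were lowest in both states (log2 fold change 1.61, SE 0.25). Mrps7, a protein of the head, was at 17.5, 10.99 and 13.7 CPM in resting and 48.8, 40.0 and 58.8 CPM in LPS cells (1.82, SE 0.24). Mrps5, near the path of the mRNA, went from 17.7, 13.4 and 17.4 CPM to 55.4, 35.1 and 39.7 CPM (1.41, SE 0.23). Each LPS library of both genes was above each resting library. Mrps2, a further homologue of a bacterial protein, had a log2 fold change of 1.52 (SE 0.24). Of the proteins found only in mitochondria, Mrps22 rose by 1.49 (SE 0.24) and Mrps34 by 0.92 (SE 0.24) on that scale.

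Mrps18a, Mrps18b and Mrps18c are paralogs related to bacterial S18, and their products occupy different sites of the ribosome. Mrps18b was at 11.3, 9.96 and 13.5 CPM in resting and 23.9, 19.0 and 24.2 CPM in LPS cells, with no overlap (log2 fold change 0.95, SE 0.23). Mrps18a was at 17.8, 10.99 and 15.9 CPM in resting and 23.3, 18.7 and 30.1 CPM in LPS cells (0.69, SE 0.24). Its groups did not overlap, but its call was near the threshold (adjusted p = 0.043 in edgeR and 0.068 in DESeq2). Mrps18c was at 6.86, 15.6 and 11.8 CPM in resting and 52.0, 34.7 and 7.69 CPM in LPS cells. In wt and Eμ-deficient cells it was higher with LPS, by 2.92 and 1.15 on the log2 scale, and in 3′RR-deficient cells it was -0.62. It was not called in the fit of all libraries (1.19, SE 0.56, edgeR adjusted p = 0.12), was called without the 3′RR-deficient pair (2.03) but had 0.33 without the wt pair (edgeR adjusted p = 0.33), and had an adjusted p of 0.043 in DESeq2. Its exons have a GC content of 44.1%, and 69 counts stand behind the 3′RR-deficient LPS value.

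Besides Mrpl3 and Mrps18c, 6 tested members were not called. Mrpl23 and Mrpl24, whose bacterial homologues sit at the mouth of the exit tunnel, had fitted log2 fold changes of 0.49 (SE 0.23) and -0.04 (SE 0.23). Mrpl24 was at 38.5, 48.3 and 42.1 CPM in resting and 48.9, 41.9 and 35.0 CPM in LPS cells, so its groups overlapped, and its fitted value turned to 0.04 without the Eμ-deficient and to 0.073 without the 3′RR-deficient pair. Mrpl33 was at 14.9, 24.6 and 19.4 CPM in resting and 62.6, 41.2 and 13.5 CPM in LPS cells. Here the wt and Eμ-deficient LPS libraries were above all resting libraries and the 3′RR-deficient one was below them (0.78, SE 0.43, edgeR adjusted p = 0.17). It was called at 1.41 without the 3′RR-deficient pair and had 0.14 without the wt pair (edgeR adjusted p = 0.66), and was called with no filter on low counts (0.029). Mrpl32, whose product is processed by the m-AAA protease, had 0.82 (SE 0.31, edgeR adjusted p = 0.058). It was called at 1.14 without the 3′RR-deficient pair and had 0.41 without the wt pair (edgeR adjusted p = 0.16), and it was called with a GC trend removed (0.0087), a length trend removed (0.037) or no filter on low counts (edgeR adjusted p = 0.020). Mrpl37 had 0.47 (SE 0.23) and was called without the wt pair (0.60), and Mrps10 had 0.44 (SE 0.24). Mrpl53, the member not tested, had 0 counts in each library, which allows up to 0.334 CPM in the shallowest by a floor of 3 counts. Of its 790 exon bases, 695 are shared on the same strand with the gene model Gm42688 in GENCODE M21; whether that sets the 0 was not tested.

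Scaled by the length of the principal transcript, the mean over the 6 libraries was highest for Mrpl20, at 85.7 CPM per kb, Mrps21, at 81.8, and Mrpl52, at 62.1. It was lowest among tested members for Mrpl47, at 2.74 CPM per kb, Mrps25, at 3.36, and Mrpl17, at 3.48. These 6 genes all rose with LPS, with log2 fold changes of 2.36, 1.47, 0.92, 1.78, 0.92 and 1.51 in that order, although Mrps25 and Mrpl52 lost their call without the Eμ-deficient pair. The size of the LPS change did not follow the level: across the 76 members, which share the same 6 libraries, Spearman's rho of the log2 fold change was -0.08 with mean CPM, -0.01 with GC content and -0.30 with exon length. Within single genotypes the members' rho with GC content was -0.34 in wt, 0.15 in Eμ-deficient and 0.27 in 3′RR-deficient cells. All genes tested had -0.26, 0.02 and 0.14 in the same order. Levels in resting and LPS cells ranked the members alike, at a rho of 0.76.

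No member passed the threshold for either enhancer deletion. For Eμ-deficient against wt 0 of 76 members were called, where 1.14% of all genes were, and for 3′RR-deficient against wt 0 of 76, where 0.76% were. DESeq2 also called 0 members in each. At an unadjusted p under 0.05 edgeR had 1 member for the Eμ deletion (Mrpl9) and 0 for the 3′RR deletion. The median log2 fold changes over the members were -0.24 for Eμ-deficient and -0.12 for 3′RR-deficient, against -0.08 and -0.02 for all genes. Both contrasts use the same wt libraries.

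Most members were lower in the Eμ-deficient LPS library than in the wt one. Within LPS cells 71 of 76 members were below wt, with a median log2 ratio of -0.35 against -0.06 for all genes. Of all 14600 genes tested, 7989 were below wt in this pair. The 95% counting interval of the ratio lay below 0 for 51 members and above 0 for 2. Within resting cells the median was -0.13, against -0.01 for all genes, with 26 intervals below 0 and 10 above. Such intervals were not computed for all genes. With 1 library a side, these ratios compare libraries and their intervals cover counting error only. The members' ratios moved with GC content here too, at a Spearman's rho of 0.46 in LPS and -0.41 in resting cells over the 76 members, where all genes had 0.23 and -0.37. Its part in the ratios was not tested. In the same 2 Eμ-deficient libraries the erythroid and plasma cell markers were highest, as given above.

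The lowest Eμ-deficient values by the naming rule, which takes the 4 highest and 4 lowest fitted values with the same sign in both states, were those of Mrpl9, Mrps12, Mrps30 and Mrpl43. Mrpl9, a homologue of bacterial L9, was at 27.003 CPM in wt and 16.2 in Eμ-deficient resting cells, and at 46.0 and 30.2 CPM after LPS. It was lower in both states, by a fitted log2 fold change of -0.67 (SE 0.26, edgeR adjusted p = 0.47). Mrps12, Mrps30 and Mrpl43 had -0.66, -0.63 and -0.61, with edgeR adjusted p of 0.63 to 0.75. Mrpl52 was the only member higher than wt in both states, at 15.7 against 19.2 CPM in resting and 34.9 against 40.7 CPM in LPS cells (0.25, SE 0.29).

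In 3′RR-deficient cells the members stayed close to wt at rest and spread out after LPS. Within resting cells the median log2 ratio to wt was 0.01, with 8 intervals above 0 and 8 below, and the SD over members was 0.23. All genes tested had a median of -0.01 and an SD of 0.72 there. Within LPS cells the median over the members was -0.18, against 0.03 for all genes, with 35 intervals below 0 and 13 above. The members' SD was 0.64, against 0.99 for all genes, and they ranged from -2.76 (Mrps18c) to 0.98 (Mrps24). The ratio moved with GC content: Spearman's rho was 0.58 across the 76 members and 0.55 across all genes. Mrps24, with a GC content of 62.2%, was at 26.3 CPM in wt and 51.7 CPM in 3′RR-deficient LPS cells, whereas Mrpl32, with 40.2%, was at 37.8 and 14.0 CPM. The 35 external spike-in RNAs with at least 100 counts also spread most in this pair of libraries, with an SD of their log2 ratios of 1.27 against 0.16 at rest. For Eμ-deficient against wt this SD was 0.48 at rest and 0.44 with LPS. For LPS against resting it was 0.78 in wt, 0.13 in Eμ-deficient and 0.63 in 3′RR-deficient cells. With a GC trend removed from each library the members' median for 3′RR-deficient against wt LPS cells was -0.34.

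**Figure D3:**
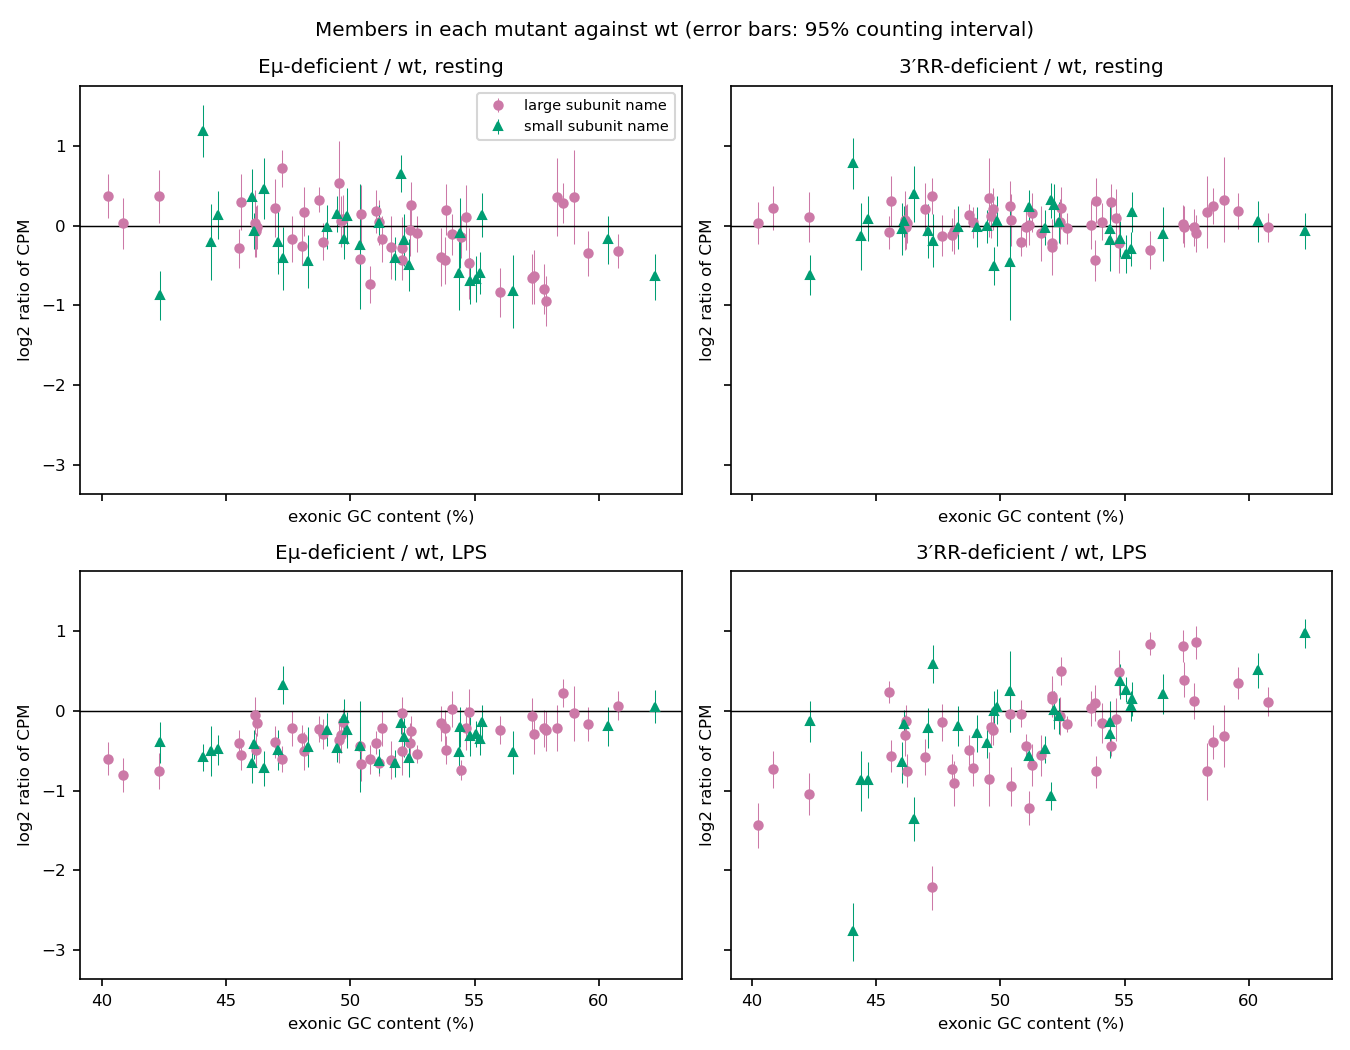
Log2 ratio of CPM of each mutant to wt for the 76 tested members against exonic GC content in percent, resting libraries above and LPS libraries below, Eμ-deficient on the left and 3′RR-deficient on the right. Circles are large and triangles small subunit names, and error bars are 95% counting intervals. The 3′RR-deficient LPS panel spreads from -2.76 to 0.98 and climbs with GC content, and the Eμ-deficient LPS panel lies mostly below 0.

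By the same naming rule the highest 3′RR-deficient values were those of Mrpl2, Mrpl17, Mrps34 and Mrpl4, at fitted log2 fold changes of 0.42, 0.37, 0.29 and 0.27. The lowest were those of Mrpl48, Mrps31, Mrpl30 and Mrps30, at -0.50, -0.50, -0.41 and -0.38. All 8 had an edgeR adjusted p of 0.92. Of the high group, Mrpl2, Mrpl4 and Mrps34 have GC contents of 57.3%, 59.6% and 60.4%, and Mrpl17 has 52.5%, whereas the low group runs from 42.3% to 48.1%. The part of GC content in these orders was not tested.

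Related genes that do not carry the Mrpl or Mrps name were read from lists beside the 68 of 76 members. The counts below stand against 20.7% of all genes called higher and 20.4% called lower. Of 7 genes listed as mitoribosomal proteins under other names, among them the membrane insertase Oxa1l, which is not a ribosomal protein, 5 rose (Dap3, Chchd1, Aurkaip1, Gadd45gip1 and Ict1) and 0 fell, with a median log2 fold change of 1.03. The largest were Chchd1 (1.77, SE 0.28) and Gadd45gip1 (1.49, SE 0.25). Those not called were Oxa1l (0.05, SE 0.25) and Ptcd3 (0.32, SE 0.23, edgeR adjusted p = 0.29). Of 15 mitochondrial translation factors 6 rose and 0 fell. Tufm, the elongation factor that brings aminoacyl-tRNA to the ribosome, went from 23.3, 11.4 and 23.01 CPM to 69.5, 53.8 and 126 CPM, with no overlap (2.09, SE 0.26). Its exchange factor Tsfm rose as well (1.72, SE 0.25). The lowest values were those of Pdf (-0.62) and Metap1d (-0.27), enzymes that trim the start of new proteins, and neither was called.

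Of 27 genes for mitoribosome assembly and rRNA modification, 8 rose and 1 fell, with a median of 0.49. Ybey and Tfb1m, which act on small subunit rRNA, had the largest rises (1.495, SE 0.36, and 1.25, SE 0.31). The gene that fell was Nsun4, an rRNA methyltransferase, from 24.2, 20.4 and 23.5 CPM to 11.6, 10.3 and 15.8 CPM, with no overlap (-0.88, SE 0.24, edgeR adjusted p = 0.017). Mettl17 was the next lowest (-0.63, not called). Of 13 genes for mitochondrial RNA synthesis and processing 8 rose and 0 fell. Slirp, an RNA-binding partner of Lrpprc, went from 13.1, 23.8 and 20.6 CPM to 144, 87.2 and 56.6 CPM (2.25, SE 0.38), and the elongation factor Tefm had 1.22 (SE 0.36). Mtpap and Tfb2m were lowest (-0.31 and -0.25, not called).

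Among 10 regulators of nuclear genes for mitochondria, 2 rose and 3 fell, where 20.7% of all genes tested were called higher and 20.4% lower, so the counts do not set these genes apart. Gabpa, the DNA-binding subunit of GABP, went from 32.0, 31.4 and 30.6 CPM to 76.3, 47.2 and 38.1 CPM (0.72, SE 0.25, edgeR adjusted p = 0.045). Pprc1, a coactivator of the PGC-1 family, had 0.66 (SE 0.23, edgeR adjusted p = 0.049). Myc fell from 195, 135 and 112 CPM to 48.1, 35.2 and 67.3 CPM (-1.57, SE 0.31), and Ppargc1a fell from low levels (-1.33, SE 0.45), as did Esrra (-0.77, SE 0.24). Nrf1 and Yy1 had 0.09 (SE 0.23) and 0.12 (SE 0.21). For neither mutant was a gene of these 5 lists called.

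**Figure D4:**
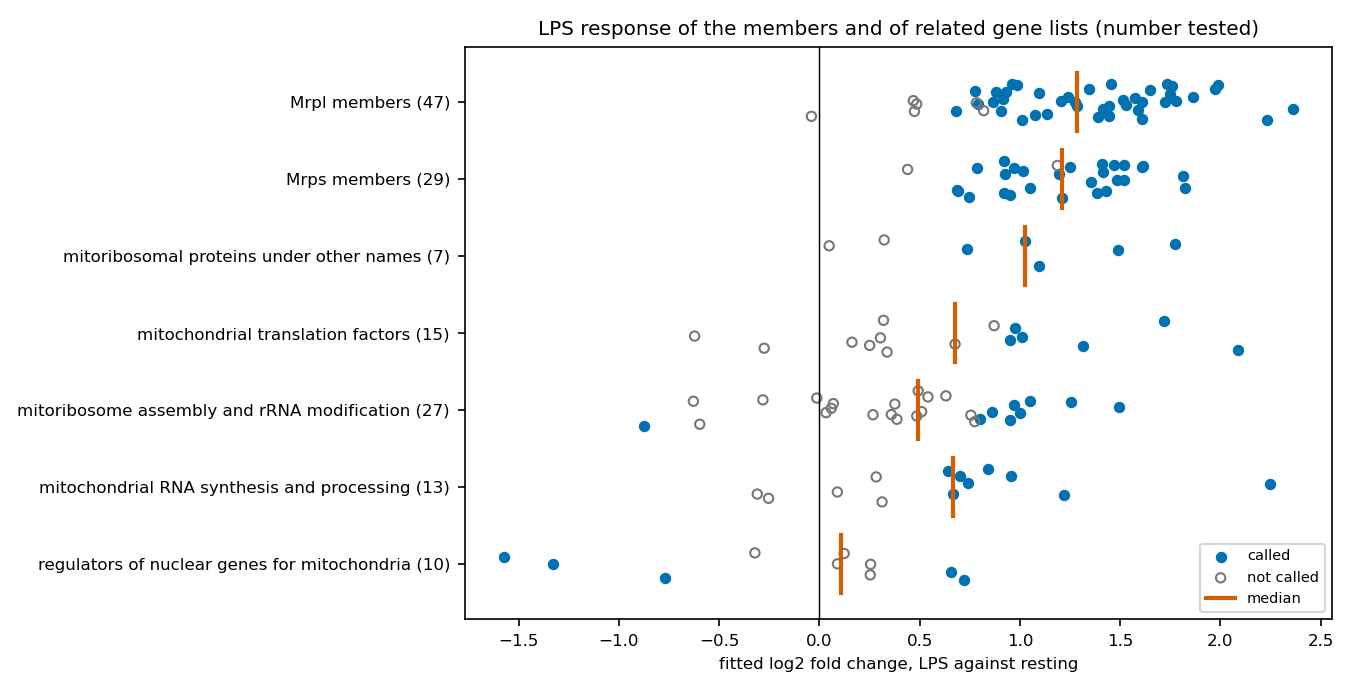
Fitted log2 fold change with LPS for the members and for 5 related gene lists, 1 point per gene with random vertical spread. Filled points were called at an adjusted p under 0.05, open points were not, and orange bars are medians. The members' medians are 1.28 (Mrpl) and 1.21 (Mrps), and those of the other lists run from 0.11 to 1.03.

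Many member genes begin next to another gene. A protein-coding gene on the other strand starts within 1000 bases of 33 of the 76 tested members (43.4%), and of 16.9% of the 11743 protein-coding genes tested. Mrpl46 and Mrps11 are such a pair, with log2 fold changes of 1.01 (SE 0.24) and 1.39 (SE 0.26). Of 28 tested partners that are no member, 10 rose and 2 fell, with a median of 0.45, where 20.7% of all genes tested were called higher and 20.4% lower. Those that rose include Ncapd2, a condensin subunit next to Mrpl51 (2.43, SE 0.24), Eme1, a DNA repair nuclease subunit next to Mrpl27 (3.32, SE 0.30), and Ndufs6, a subunit of complex I next to Mrpl36 (1.92, SE 0.23). Pnpla7 next to Mrpl41 (-1.73, SE 0.26) and Klc4 next to Mrpl2 (-1.31, SE 0.28) fell, although the members beside them rose. Fau, a cytosolic ribosomal protein gene next to Mrpl49, had 0.07 (SE 0.28) while Mrpl49 had 1.61 (SE 0.24). These partners were chosen by position alone, and those named by their values. Over the 28 tested partners that are no member, Spearman's rho of member and partner log2 fold changes was 0.40.

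Exons of 32 members overlap an exon of another gene in GENCODE M21, 27 of them on the opposite strand. The authors counted on an Ensembl annotation instead, so the overlaps present in the counting may differ. In 54 gene pairs that overlap on opposite strands, the median count density of the antisense gene was 0.30% of its partner. This median alone cannot show that the counts followed the strand, because an antisense gene may itself be weakly expressed. Of the 45 tested members without overlap, 41 rose with LPS. Copies of at least 97% identity over 150 bases and 30% of the transcript exist for 10 members, among them Mrpl21, Mrpl22, Mrpl23, Mrpl27, Mrpl41, Mrps18b, Mrps21 and Mrps36. Reads that map to several places were counted at their primary place, so the values of these members are uncertain to that extent.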

How the data were processed

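Whole-transcriptome libraries (rRNA depletion, stranded TruSeq kit, paired reads of 150 bases) were aligned by the authors with STAR 2.4.0a to mm10 and counted per gene name with featureCounts (Subread 1.4.6-p1), on the forward strand option, with primary alignments of multi-mapping reads kept. The deposited values are raw counts per gene. Here 92 spike-ins were set apart and a gene was tested where 2 or more libraries held 10 or more counts (14600 genes). edgeR 4.0.16 (R 4.3.3) fitted genotype plus culture state to 6 libraries with TMM scaling, leaving 2 residual degrees of freedom. P-values were Benjamini-Hochberg adjusted over all genes tested, threshold 0.05, and the fit was tested on simulated data. SE is the log2 fold change divided by the root of the quasi-likelihood F. Ratios of single libraries carry exact conditional binomial 95% intervals (scipy 1.17.1). DESeq2 1.42.0 and BLAST+ 2.17.0 served for alternatives and copies. Gene positions and exon overlaps are from GENCODE M21 (GRCm38, the same build as mm10), whereas the authors counted on an Ensembl annotation.

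The members and lists were chosen with earlier results of these data known. Named members were 17 fixed by role, the 6 largest rises and falls with LPS of one sign in 3 genotypes (no member fell in all 3), the 4 highest and 4 lowest for each mutant, the 3 highest and lowest levels per kb, and any untested member; from each other list the 2 largest rises and falls. Further members not called with LPS, Mrps24, Mrpl32, Mrpl22, the divergent partners and the promoter windows printed were chosen after their values or motifs were seen. Copies were sought with megablast. Alternatives were other scalings, filters, a GC or length trend removed, DESeq2, no genotype block, members with overlapping exons left out and each genotype left out. The removal of GC trends within each culture state was chosen after seeing the data.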

Additional observations from a re-analysis of the deposited data

Results flagged for a closer look

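In 3 members the LPS change went in opposite directions in 2 genotypes, with each 95% counting interval on its own side of 0. The differences were not tested, because each genotype has 1 library a state. Mrps18c had LPS to resting log2 ratios of 2.92 in wt and 1.15 in Eμ-deficient cells and -0.62 in 3′RR-deficient cells. Mrpl33 had 2.07, 0.75 and -0.52 in the same order. Mrpl24 had 0.35 in wt, -0.20 in Eμ-deficient and -0.27 in 3′RR-deficient cells. The exons of Mrps18c, Mrpl33 and Mrpl24 have GC contents of 44.1%, 47.2% and 48.7%, below the members' median of 51.2%. In GENCODE M21, Mrps18c and Mrpl33 each share exon bases on the same strand with a further gene model.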

How the results depend on the processing

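No member was called lower with LPS under any alternative run, but the calls varied: of the 68 members called, 60 were also called under scaling by total counts, 62 with a length trend removed, 67 with a GC trend removed and 65 without genotype as a block. Without the Eμ-deficient pair 46 of them were called, without the 3′RR-deficient pair 58 and without the wt pair 67. Mrps18a and Mrps30 lost their call under total counts (adjusted p = 0.12 and 0.13), DESeq2 size factors (0.051 and 0.055), no filter (0.056 and 0.066), no genotype term (0.078 and 0.096) and DESeq2 (0.068 and 0.079), and Mrps30 also with the GC trend removed (0.090). Mrpl43 lost it under total counts (0.074), the length trend (0.14) and no genotype term (0.086), Mrpl48 under total counts (0.067) and Mrpl52 with the length trend removed (0.16). Of members not called, Mrpl23 and Mrpl37 were called with the GC trend removed (0.043 and 0.035) and Mrps10 with the length trend removed (0.047). Leaving out members with overlapping exons gave 41 calls of 45. Leaving out each genotype gave 46 to 68 calls and medians of 1.14 to 1.36. The median log2 fold change was 1.04 with the length trend removed, and scaling by total counts put the median of all genes at -0.16. No alternative called a member for either mutant. Mrpl24, which was not called, ran from -0.24 without wt libraries through 0.04 without Eμ-deficient to 0.073 without 3′RR-deficient ones.

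Ratios of single libraries moved more. For Eμ-deficient resting cells the members' median was -0.28 under total counts and -0.067 under DESeq2 size factors. It was -0.076 with the GC and -0.17 with the length trend removed, and -0.065 without overlapping members. All genes had -0.17, 0.042, -0.018 and -0.062 under these scalings and trends, in that order. For Eμ-deficient LPS cells the members' median was -0.22, -0.31 and -0.32 under total counts, DESeq2 size factors and GC, where all genes had 0.038, -0.038 and -0.041. Without overlapping members it was -0.39. For 3′RR-deficient LPS cells the members' median was -0.055, -0.10 and -0.34 under total counts, DESeq2 size factors and GC. All genes had 0.093, 0.044 and -0.032 there. For 3′RR-deficient resting cells the members' median was -0.15 under total counts, where the median of all genes was -0.17 too. The causes were not tested. Genotype as a block pairs each resting library with the LPS library of its genotype; the labels give no replicate numbers, so no other pairing could be made. With 1 library a group, no difference between mice is measured, and counts of 24 to 2540 a member limit the precision of single ratios.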
